A study of Homo sapiens with 19 samples.

Results

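Binding of the oestrogen-related receptor α (ERRα) was described near 10 genes that restrain growth factor signalling, out of 19881 protein-coding genes with an annotated start. The genes are DUSP1, DUSP4, DUSP5, DUSP6, SPRY1, SPRY2, SPRY4, SPRED1, SPRED2 and ERRFI1. They were set by name, with earlier results of these data known. A peak was assigned to a gene when its centre lay within 20 kb of any transcription start of that gene on hg19 (GRCh37). Peaks from several lists were joined into 1 site wherever they shared 1 bp or more, and the sites of each gene were numbered by position. The 10 genes had 190 peaks at 50 sites over 8 peak lists.

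Receptor tyrosine kinases such as EGFR and HER2 signal through RAS to the kinase ERK, and cells limit this signal by making its inhibitors. DUSP proteins are phosphatases that remove the activating phosphates from MAP kinases. Sprouty proteins (SPRY) and the related SPRED proteins act between the receptor and RAF, and the ERRFI1 product (MIG6) binds the kinase domain of EGFR and its relatives. Many of these genes are transcribed within minutes to hours of ERK activation, which makes them feedback inhibitors. ERRα is an orphan nuclear receptor that binds DNA at the ERR response element (ERRE) and is best known for its control of mitochondrial genes.

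The study asked how growth factors and resistance to lapatinib, an inhibitor of EGFR and HER2, alter where ERRα binds in HER2-amplified breast cancer cells. SKBr3 and BT-474 cells, both established lines, were starved of serum for 24 h and then received PBS vehicle, EGF or heregulin (HRG), the growth factors for 90 min at a labelled dose of 100 μM. Parental SKBr3 cells (pSKBr3) were left untreated, and their lapatinib-resistant derivative (LRSKBr3) was kept in 2 μM lapatinib; both grew in medium with serum. LRSKBr3 and pSKBr3 differ in line and in drug, and the 2 cannot be told apart.

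Each condition has 1 deposited peak list, so no value has a replicate spread and no P value is given. The SKBr3, pSKBr3 and LRSKBr3 lists each pool 2 ChIP libraries against 1 input, and each BT-474 list rests on 1 ChIP library, with the vehicle input shared. EGF and HRG were compared with the same vehicle list within a line. The lists held between 22539 peaks (pSKBr3) and 41271 peaks (BT-474 HRG), and the number of reads behind them is unknown. Strength is given as a score percentile, the rank of the score of a peak within its own list from 0 (weakest) to 100 (strongest). The strongest peak within 20 kb of a start of ESRRA, which encodes ERRα and is a target of its own product, had a score of 3100 (percentile 98.3 to 98.9) in each list. The lists hold no expression values, so the cell types could not be checked against marker genes, and binding was not set beside transcript levels.

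The stretches below are 121 bp of GRCh37 sequence, plus strand, from sites that change between conditions or that hold strong peaks. They were taken only from sites that hold one of the words searched for, and other strong or changing sites are not shown. Capitals mark the words searched for, on both strands. They are the ERRE, TCAAGGTCA, which reads TGACCTTGA on the opposite strand, its core AAGGTCA, which reads TGACCTT, the AP-1 word TGACTCA, which reads TGAGTCA, and the cyclic AMP response word TGACGTCA. The core lies within the ERRE, so each ERRE also counts as a core.
DUSP1 site 3 (chr5:172198259-172198379): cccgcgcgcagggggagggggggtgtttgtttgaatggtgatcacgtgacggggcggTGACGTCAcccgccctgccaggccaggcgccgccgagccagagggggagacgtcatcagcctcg
DUSP5 site 4 (chr10:112268651-112268771): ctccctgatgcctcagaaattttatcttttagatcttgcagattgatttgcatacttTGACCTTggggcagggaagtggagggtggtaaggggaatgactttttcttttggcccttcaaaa
SPRY2 site 1 (chr13:80915656-80915776): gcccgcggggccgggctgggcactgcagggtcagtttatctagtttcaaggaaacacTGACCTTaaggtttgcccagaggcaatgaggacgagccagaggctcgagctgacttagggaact
SPRY4 site 1 (chr5:141675676-141675796): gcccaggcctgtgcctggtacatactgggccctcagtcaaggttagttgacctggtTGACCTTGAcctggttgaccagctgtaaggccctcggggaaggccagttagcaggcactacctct
SPRY4 site 3 (chr5:141706116-141706236): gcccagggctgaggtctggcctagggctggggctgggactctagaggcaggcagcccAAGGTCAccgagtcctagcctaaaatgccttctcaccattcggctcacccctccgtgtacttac
SPRY4 site 4 (chr5:141721961-141722081): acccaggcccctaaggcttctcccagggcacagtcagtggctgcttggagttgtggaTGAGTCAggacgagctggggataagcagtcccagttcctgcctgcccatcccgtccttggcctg
SPRED2 site 7 (chr2:65604958-65605078): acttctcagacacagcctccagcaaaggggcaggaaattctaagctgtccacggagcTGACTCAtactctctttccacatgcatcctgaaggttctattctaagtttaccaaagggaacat
SPRED2 site 13 (chr2:65664589-65664709): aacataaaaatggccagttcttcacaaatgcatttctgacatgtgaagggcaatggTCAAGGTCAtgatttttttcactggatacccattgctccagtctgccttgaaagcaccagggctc
ERRFI1 site 4 (chr1:8079638-8079758): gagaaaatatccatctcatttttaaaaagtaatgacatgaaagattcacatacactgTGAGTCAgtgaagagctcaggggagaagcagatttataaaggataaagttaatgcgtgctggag
ERRFI1 site 7 (chr1:8104509-8104629): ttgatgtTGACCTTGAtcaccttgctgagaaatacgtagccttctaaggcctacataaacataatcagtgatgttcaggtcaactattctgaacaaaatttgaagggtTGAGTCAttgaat

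The SPRY2 stretch is the only site of that gene and was called on growth factors in SKBr3 cells alone among the 8 lists. The 3 SPRY4 stretches and the SPRED2 site 13 stretch belong to sites found in all 8 lists. The ERRFI1 site 7 stretch was called on HRG only and holds an ERRE word 76 bp to one side of the peak centre and an AP-1 word 24 bp to the other. A matching word is a description of the sequence and does not show which protein bound there.

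Within 20 kb, 8 of the 10 genes had a peak on vehicle in SKBr3 cells, against 54.6% of all protein-coding genes. The EGF list had a peak at 9 genes (background 56.8%) and the HRG list at all 10 (background 67.0%). In BT-474 cells the numbers were 8 on vehicle (background 53.4%), 7 on EGF (background 42.7%) and 9 on HRG (background 55.8%). The pSKBr3 list had 7 genes (background 57.6%) and the LRSKBr3 list 9 (background 70.6%). DUSP1, DUSP4, SPRY1, SPRY4 and SPRED2 had a peak in all 8 lists, as did 27.1% of protein-coding genes, and none of the 10 was without a peak throughout. The margin over the background share was smallest in pSKBr3 and LRSKBr3 cells, where the counts were near it.

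Peaks near the start were counted as well. A peak centre within 1 kb of a start was found at 5 genes on vehicle (background 23.6%), 5 on EGF (background 22.6%) and 6 on HRG (background 36.1%) in SKBr3 cells. In BT-474 cells 4 genes had such a peak in each list, against 19.6% of all genes on vehicle, 11.5% on EGF and 17.0% on HRG. The pSKBr3 list had 5 (background 31.8%) and the LRSKBr3 list 5 (background 42.2%), the latter near the background. SPRED1 sat on the edge of this limit, with centres between 923 bp and 1217 bp from a start. The 20-kb range covers between 40.0 kb (DUSP1) and 123 kb (SPRED2) of sequence, since SPRED2 has 8 starts, against a median of 49.6 kb over all genes, and 90.2% of genes have less sequence in range than SPRED2.

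**Figure D1:**
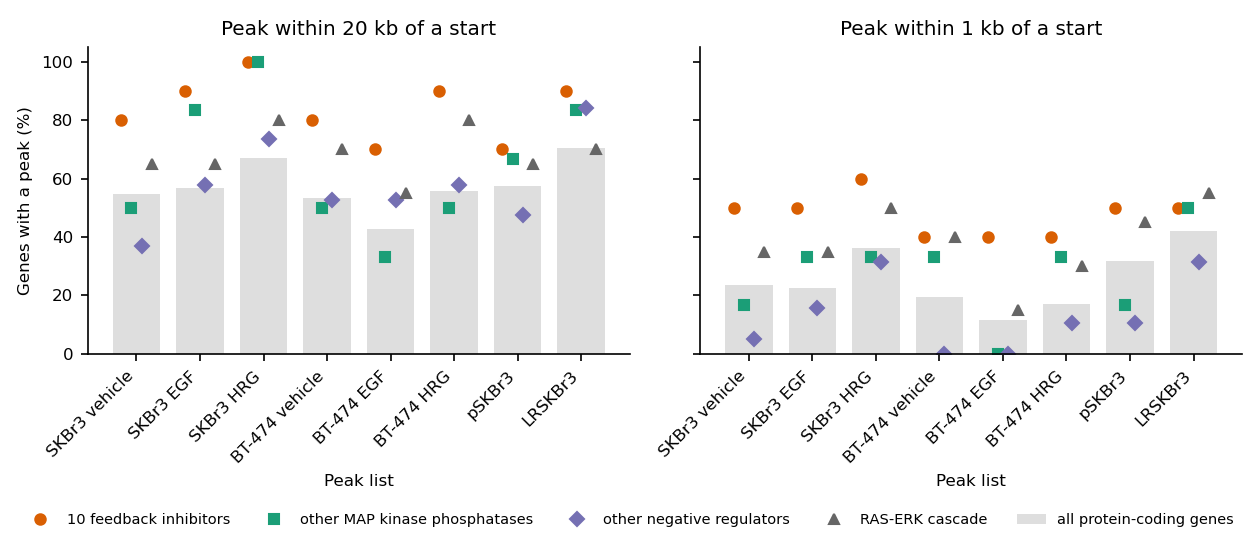
Percentage of genes with an ERRα peak within 20 kb (left) or 1 kb (right) of a start in each of the 8 lists. Bars are all 19881 protein-coding genes and symbols are the 10 feedback inhibitors and the 3 lists of other pathway genes. The circles of the 10 genes lie above the bar in each list in both panels, by the least in LRSKBr3 cells within 1 kb.

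**Figure D2:**
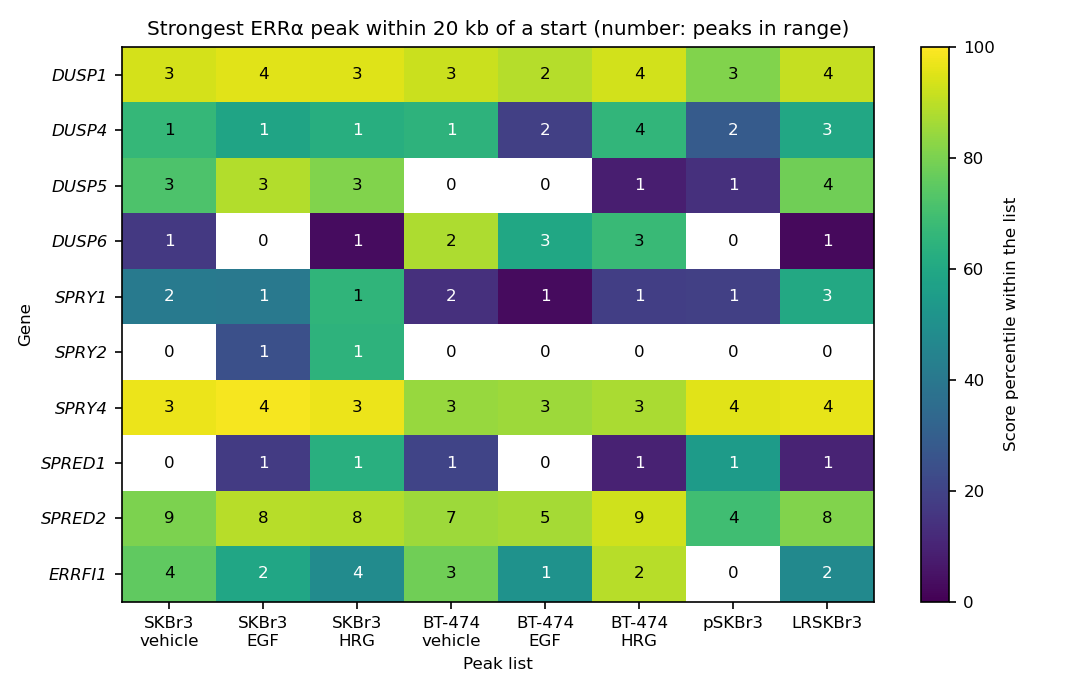
Score percentile of the strongest peak within 20 kb of a start for each gene (rows) and list (columns), with the number of peaks in range printed in each cell and white for no peak. DUSP1, SPRY4 and SPRED2 are bright in nearly all lists, and SPRY2 is white in 6 of 8.

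DUSP1, an immediate early gene whose product dephosphorylates ERK, p38 and JNK in the nucleus, carried one of the strongest and steadiest sites. The site lay 4.91 kb downstream of the start (DUSP1 site 2, chr5:172191541-172194752, intergenic) and was called in all 8 lists. Its percentile was 93.4 on vehicle, 95.4 on EGF and 95.1 on HRG in SKBr3 cells. In BT-474 cells it was 91.8, 89.0 and 93.0, in the same order, and it was 81.2 in pSKBr3 and 91.4 in LRSKBr3 cells. None of the words searched for occurred anywhere within these peaks.

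The DUSP1 promoter itself behaved differently between the lines. DUSP1 site 3 (chr5:172197282-172199596), over the first exon, had a percentile of 15.7 on vehicle, 56.5 on EGF and 63.2 on HRG in SKBr3 cells. It reached 77.8 in pSKBr3 and 58.3 in LRSKBr3 cells and was not called in any BT-474 list. A rise as large as the EGF one occurred at 5.40% of all peaks shared by vehicle and EGF, and one as large as the HRG one at 6.24% of those shared by vehicle and HRG. The word TGACGTCA shown above stands 121 bp upstream of the start and within all 5 of these peaks, although further than 100 bp from each centre. DUSP1 site 4, 4.27 kb upstream, went from 61.7 on vehicle to 74.3 on EGF and 32.3 on HRG.

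DUSP4, which encodes a nuclear phosphatase of the same family, was bound in its intron. DUSP4 site 1 (chr8:29197191-29199424), 7.99 kb downstream of a start, was called in all 8 lists, at percentiles of 66.6, 58.4 and 62.6 in SKBr3 cells on vehicle, EGF and HRG. In BT-474 cells the site stood at 64.6 on vehicle, 19.0 on EGF and 65.9 on HRG. A fall as large as that on EGF occurred at 2.73% of the peaks that BT-474 vehicle and EGF share. The intron also held a site that was weak in pSKBr3 cells (percentile 2.03) and stood at 59.8 in LRSKBr3 cells (DUSP4 site 2, 3.51 kb from a start). On HRG the BT-474 list had 4 DUSP4 peaks against 1 on vehicle, and it also had many peaks in the surrounding region, with 39.5 peaks per Mb within 1 Mb against 14.4 genome-wide. On vehicle that density was 27.0 against 11.3. The part of this density in the DUSP4 calls was not tested. Just outside the range, 21.2 kb from the DUSP4 start, all 3 BT-474 lists had a very strong peak (percentile 98.3 to 98.9).

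DUSP5, an ERK-specific nuclear phosphatase, rose in rank on both growth factors at both of its upstream sites in SKBr3 cells. DUSP5 site 2 (chr10:112250664-112252199), 6.22 kb upstream of the start, stood at percentile 41.2 on vehicle, 88.4 on EGF and 77.8 on HRG. DUSP5 site 1 (chr10:112246805-112248225), 10.1 kb upstream, stood at 39.4, 73.1 and 81.0. An increase as large as that of site 2 on EGF was seen at 3.57% of the shared peaks, and one as large as that of site 1 on HRG at 8.47%. The intronic DUSP5 site 4, whose core word is shown above, was strong already on vehicle (72.0, then 77.0 on EGF and 64.8 on HRG). Both growth factor comparisons use the same vehicle list, so their low starting values are the same numbers.

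In BT-474 cells DUSP5 was nearly unbound. The vehicle and EGF lists had no peak in range, the nearest lying 67.8 kb and 67.7 kb away, and the HRG list had 1 weak peak at site 1 (percentile 8.24). Between the parental and the resistant line, DUSP5 site 1 stood at 13.7 in pSKBr3 and 78.3 in LRSKBr3 cells, a rise matched by 2.63% of the peaks they share. Sites 2, 3 and 4 were called in LRSKBr3 (62.0, 27.6 and 10.0) and not in pSKBr3 cells.

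DUSP6, the cytoplasmic ERK phosphatase and a common readout of ERK activity, showed the opposite division between the lines. BT-474 cells on vehicle had an 8820-bp peak across the promoter (DUSP6 site 3, chr12:89742078-89751149) at percentile 87.5. On EGF the same region held 2 peaks, of percentile 24.5 and 11.5. On HRG it held 2 peaks, of 67.7 and 23.8. A fall as large as the EGF one occurred at 0.322% of the peaks shared by BT-474 vehicle and EGF, where the median change was -2.88 percentile points. The vehicle peak was wider than 99.6% of its list, and the 2 EGF peaks were narrower and lay within its span. The fall thus sets 1 wide peak against the stronger of 2 narrower ones, which was centred 1.18 kb downstream of a start. A second site 18.9 kb upstream (DUSP6 site 4) was called in the 3 BT-474 lists only, at 69.2, 59.5 and 65.9. The ERRE word occurred at 2 positions in the wide vehicle peak, the nearer 1834 bp from its centre.

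SKBr3 cells had little at DUSP6. Vehicle gave 1 peak of percentile 16.7, 3.29 kb upstream, and EGF gave none, with the nearest peak 23.1 kb away. HRG gave a single peak of percentile 3.44, 17.3 kb downstream. In pSKBr3 cells the nearest peak lay 158 kb away, and LRSKBr3 cells had 1 peak of percentile 2.64, 6.17 kb into the downstream side. The density of peaks within 1 Mb of DUSP6 was 24.5 per Mb on BT-474 vehicle, where 94.3% of genes had a lower density, and 23.5 per Mb on SKBr3 vehicle, where 86.9% did.

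The 3 Sprouty genes had 3 different patterns. SPRY1, an inhibitor upstream of RAS, had a weak site over its first exon and a site beside an internal start that ranged from weak to above the middle of its list. SPRY1 site 1 (chr4:124316644-124319001), over the first exon, had percentiles of 25.8 on SKBr3 vehicle, 12.9, 2.90 and 18.7 on BT-474 vehicle, EGF and HRG, and 10.2 in LRSKBr3 cells. SPRY1 site 2 (chr4:124319733-124321418), beside an internal start, was called at 65.3 on HRG in SKBr3 cells but not on vehicle or EGF. It was also called on BT-474 vehicle (13.8), in pSKBr3 (19.1) and in LRSKBr3 cells (51.4). A distal site 16.2 kb downstream (SPRY1 site 3) was called on SKBr3 vehicle (40.7), on EGF (40.3) and in LRSKBr3 cells (60.5).

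SPRY2, a further inhibitor induced by growth factors, had no ERRα peak in range in 6 of the 8 lists. In SKBr3 cells a peak 445 bp upstream of the start (chr13:80915186-80916221) was called on EGF at score 80.11 (percentile 24.5) and on HRG at score 238.8 (percentile 64.8). The core word TGACCTT shown above stands 10 bp from the centre of the HRG peak. On SKBr3 vehicle the nearest peak was 100 kb away, and in the other 5 lists without a call it was between 99.9 kb and 216 kb away. The region around SPRY2 is sparse in peaks, with 5.50 per Mb within 1 Mb on vehicle against 11.3 genome-wide. The same 2 lists and no other were called at 84 of 19881 genes (0.423%), while the patterns of DUSP6 and SPRED1 over the 8 lists occurred at 34 (0.171%) and 80 genes (0.402%). Those of DUSP5 and ERRFI1 occurred at 302 (1.52%) and 352 genes (1.77%), and that of the remaining genes at 27.1%. The DUSP6 pattern includes weak calls, at percentiles of 3.44 on SKBr3 HRG and 2.64 in LRSKBr3 cells.

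SPRY4, also an inhibitor of RAS activation, had 3 sites present in all 8 lists. SPRY4 site 1 (chr5:141674294-141677463), 19.5 kb downstream and intergenic, reached the score of 3100 on EGF (percentile 98.6) and stood at 97.1 on both vehicle and HRG. It was 78.9, 85.1 and 86.6 on BT-474 vehicle, EGF and HRG, 95.4 in pSKBr3 and 96.3 in LRSKBr3 cells. Its centre lay between 19379 bp and 19570 bp from a start, just inside the 20-kb limit, and the ERRE word shown above is 125 bp from the centre of the EGF peak. SPRY4 had another peak just outside the limit in 7 lists, 23.1 to 24.2 kb away, at percentiles of 60.7 to 82.9.

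The SPRY4 promoter (SPRY4 site 3, chr5:141701590-141708220) ranked higher in BT-474 than in SKBr3 cells on vehicle and on EGF. It stood at 84.6, 85.5 and 87.3 on BT-474 vehicle, EGF and HRG, and at 68.6, 67.8 and 84.5 in SKBr3 cells. In pSKBr3 and LRSKBr3 cells it was 73.4 and 72.2. In the BT-474 HRG list the core word AAGGTCA was 1 bp from the peak centre. The upstream SPRY4 site 4 (chr5:141720791-141723405), which holds the AP-1 word TGAGTCA, went the other way. It was 85.1, 96.5 and 93.3 in SKBr3 cells, 49.5, 51.0 and 38.6 in BT-474 cells, 79.0 in pSKBr3 and 67.4 in LRSKBr3 cells.

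**Figure D3:**
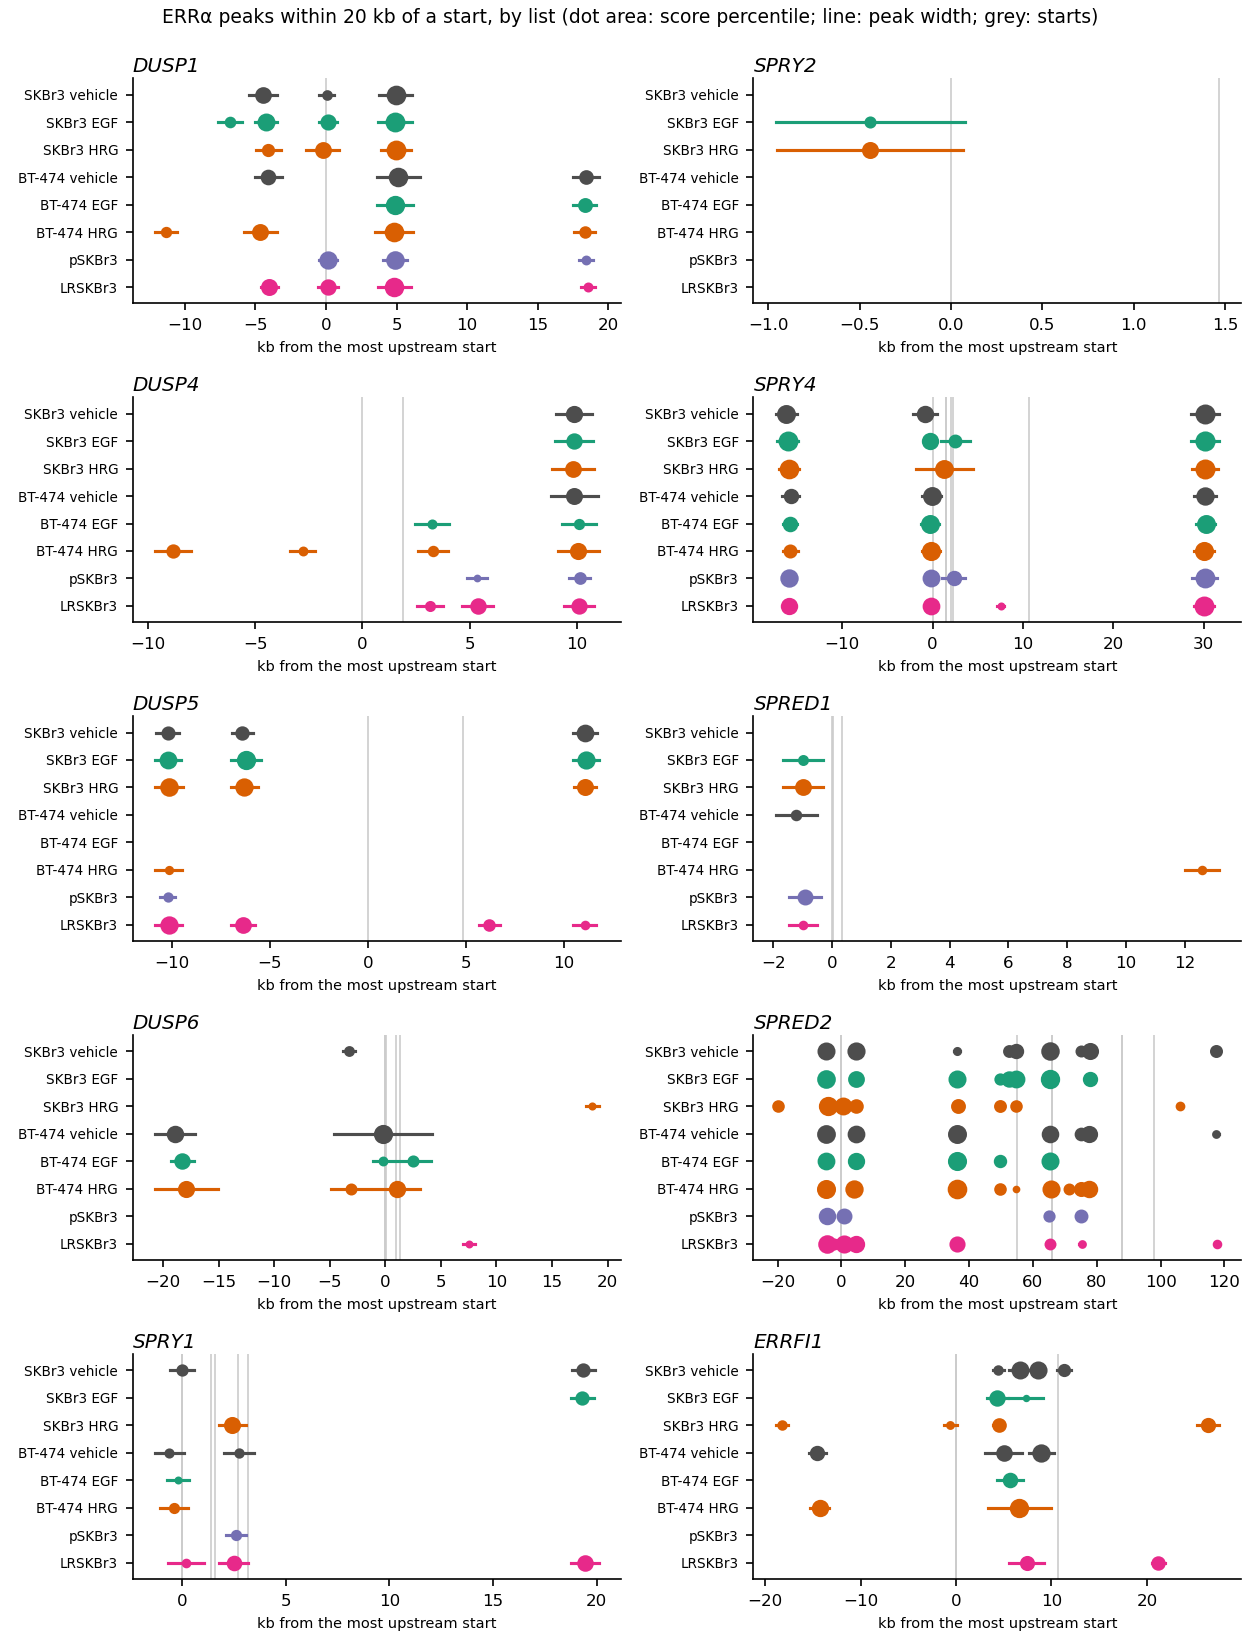
Positions of all 190 peaks by gene and list, in kb from the most upstream start along the direction of transcription. Dot area grows with the score percentile, lines span the peak width and grey verticals mark annotated starts. SPRY2 shows dots on EGF and HRG of SKBr3 only, and the wide DUSP6 peaks are seen in BT-474 rows only.

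SPRED1 and SPRED2 encode membrane proteins that bring the RAS inactivator neurofibromin to RAS. SPRED1 had a single site near its start (SPRED1 site 1, chr15:38543113-38544725). It was not called on SKBr3 vehicle, and was called at score 68.85 (percentile 17.5) on EGF and score 223.0 (percentile 63.0) on HRG. In BT-474 cells the site was called on vehicle (20.6) but on neither growth factor, and HRG gave instead an intronic peak of percentile 9.58, 12.2 kb downstream. It stood at 54.9 in pSKBr3 and 10.0 in LRSKBr3 cells, and a fall as large as that was found at 0.437% of the peaks those lists share. Where SPRED1 had no peak in range, the nearest peak was 34368 bp away on SKBr3 vehicle and 35025 bp away on BT-474 EGF. Both were strong, at percentiles of 96.5 and 95.6.

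SPRED2 had 14 sites, more than any other of the 10 genes, and also the most sequence in range. It carried between 4 peaks (pSKBr3) and 9 peaks (SKBr3 vehicle and BT-474 HRG). Only 0.734% of all genes had as many on SKBr3 vehicle. SPRED2 site 10 (chr2:65622128-65624977), in an intron, stood at percentile 7.58 on vehicle, 75.3 on EGF and 45.4 on HRG in SKBr3 cells, and a rise as large as the EGF one occurred at 0.766% of shared peaks. It was strong throughout in BT-474 cells (85.4, 86.7 and 92.8), at 56.5 in LRSKBr3 cells and absent from pSKBr3 cells. SPRED2 site 6, beside an internal start, stood at 80.3 on vehicle and 89.4 on EGF but was not called on HRG in SKBr3 cells. SPRED2 site 7 (chr2:65604157-65606056), which has the AP-1 word 43 bp from the centre of the EGF peak, stood at 49.2 on vehicle, 73.1 on EGF and 27.5 on HRG.

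The upstream SPRED2 site 13 (chr2:65661370-65666088) was present in all 8 lists and holds the ERRE word shown above. It stood at 75.0, 81.9 and 88.6 on SKBr3 vehicle, EGF and HRG, at 83.0, 72.7 and 86.1 in BT-474 cells, and at 69.4 and 80.9 in pSKBr3 and LRSKBr3 cells. The site beside the main start (SPRED2 site 12, chr2:65657559-65660588) was called on HRG in SKBr3 cells (73.9), in pSKBr3 (54.7) and in LRSKBr3 cells (76.0), and not in the other 5 lists. In contrast, SPRED2 site 11, an intronic ERRE-holding site, fell in rank from 76.5 on vehicle to 62.7 on EGF and 42.8 on HRG in SKBr3 cells. A site 19.9 kb upstream was called on HRG at the edge of the range (SPRED2 site 14, percentile 27.7). BT-474 cells had an overlapping peak at 20137 bp on EGF and 20026 bp on HRG, just out of range.

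ERRFI1, whose product inhibits EGFR and its relatives directly, was bound mainly over a broad intronic stretch in which peaks at different positions merged into 1 site (ERRFI1 site 4, chr1:8076144-8083374). On SKBr3 vehicle 3 peaks lay there, at percentiles of 75.7, 75.0 and 14.6. EGF gave a peak of 0.619 over the positions of the stronger pair and a peak of 59.0 over that of the weakest. HRG gave 1 peak of 43.3, over the position of the weakest vehicle peak. In BT-474 cells vehicle gave peaks of 78.2 and 60.8, EGF a peak of 50.9 over the position of the weaker one, and HRG a peak of 89.2 that was 6609 bp wide and spanned both. In SKBr3 cells one end of the stretch thus ranked higher and the other lower on EGF than on vehicle. No difference between the lines was tested.

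HRG brought 3 ERRFI1 sites in SKBr3 cells that no other list had. They were ERRFI1 site 5, 583 bp upstream of the start (percentile 6.61), ERRFI1 site 7, 18.2 kb upstream (14.7), and ERRFI1 site 1, 15.7 kb downstream (48.3). In pSKBr3 cells ERRFI1 had no peak within range, the nearest lying 23.6 kb away (percentile 47.4). LRSKBr3 cells had 2, at ERRFI1 site 4 (47.3) and ERRFI1 site 2 (41.9). Just outside the range, 21.2 to 21.4 kb away, the nearest peak stood at 3.88 on SKBr3 vehicle, 89.1 on EGF and 72.6 on HRG. In BT-474 cells it stood at 0.0434 on vehicle and 71.5 on HRG, and in LRSKBr3 cells at 39.5.

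Taking the 10 genes together, EGF in SKBr3 cells gained SPRY2 and SPRED1 and lost DUSP6. Over all protein-coding genes 7.82% were gained and 5.66% lost. Of the EGF gains SPRY2 alone was left at P at most 1e-08, and 0 were left at 1e-10 and when each list was cut to its 22539 strongest peaks, and the DUSP6 loss went to 0 under all of these. HRG gained the same 2 genes and lost 0, where 16.7% of all genes were gained and 4.32% lost. Both comparisons rest on the same absence from the vehicle list. In BT-474 cells EGF gained 0 and lost SPRED1, with 3.06% of all genes gained and 13.8% lost. HRG gained DUSP5 and lost 0 there, with 8.24% gained and 5.92% lost. The DUSP5 gain went to 0 at 1e-08, at 1e-10, within 10 kb and with lists of equal size, and the SPRED1 loss on EGF was not found at 1e-08, at 1e-10 or with lists of equal size. At 1e-08 and 1e-10 DUSP4 was the gene lost on EGF. These counts of 0 to 2 genes in 10 are near the background shares, so they describe single genes and not the group.

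At the level of sites, 36 of the 50 were called in at least 1 SKBr3 list. Of these, 15 were common to vehicle, EGF and HRG, 8 were called on HRG only, 5 on vehicle only, 1 on EGF only and 3 on both growth factors without vehicle. A further 4 were called on vehicle and EGF, and 0 on vehicle and HRG. At P at most 1e-08 the SKBr3 sites on HRG only fell to 5, those on vehicle only to 2 and those on EGF only to 0. Sites on both growth factors without vehicle then numbered 4. In BT-474 cells 30 sites were called, with 14 common to the 3 lists, 7 on HRG only, 3 on vehicle only, 2 on both growth factors, 4 on vehicle and HRG, and 0 on EGF only. The HRG list is longer than the EGF list in both lines, and the share of HRG-only, EGF-only or vehicle-only sites over whole lists was not computed. In the whole lists, 51.2% of SKBr3 HRG peaks and 33.1% of EGF peaks had no vehicle peak, and in BT-474 cells the shares were 36.3% and 23.4%. Of the SKBr3 vehicle peaks 31.8% had no EGF peak and 43.0% no HRG peak. For BT-474 vehicle peaks these shares were 37.3% and 18.9%.

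The sites that HRG added near starts in SKBr3 cells were SPRY1 site 2, SPRY2 site 1, SPRED2 site 12, ERRFI1 site 5 and, at 1006 bp, SPRED1 site 1. Other sites near starts were called on vehicle and not on HRG, namely SPRY1 site 1 (25.8), SPRED2 site 6 (80.3) and ERRFI1 site 3 (32.1). DUSP6 site 3 was too, although its SKBr3 vehicle peak lay 3.29 kb from a start. Of the 11 sites with their strongest peak within 1 kb of a start, 7 had a peak on vehicle and 7 on HRG. The sequence around the centres of the added HRG peaks was between 57.7% and 74.1% GC. The median was 50.2% over all HRG peaks, near starts or not, and 48.0% over the 26 HRG peaks of the 10 genes. In the whole list, 18.7% of the HRG peaks without a vehicle peak lay within 1 kb of a start of a protein-coding gene, against 8.69% of the EGF peaks without one, with median GC contents of 51.2% and 44.8%. Among peaks with a vehicle peak the shares were 20.8% on HRG and 16.2% on EGF. Their median GC contents were 49.3% and 46.3%. The part of GC content in these calls was not tested.

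Where a site was called in both lists of a comparison, the rank of its strongest peak could be compared. At ERRFI1 site 4, counted as lower on both growth factors in SKBr3 cells and on EGF in BT-474 cells, the strongest peaks of the 2 lists lay at different positions. So did those of DUSP6 site 3 in BT-474 cells, where 1 wide vehicle peak was set against the stronger of 2 narrower peaks on each growth factor. On EGF in SKBr3 cells 13 of 19 such sites had a higher percentile and 6 a lower one, with a median change of 6.94 points. Over all 21946 shared peaks 42.9% were higher and the median change was -1.60. On HRG 9 of 15 were higher (median change 1.73), against 52.0% of all shared peaks (median 0.879). In BT-474 cells 6 of 14 were higher on EGF (median change -3.69), against 36.6% of all shared peaks (median -2.88). On HRG 14 of 18 were higher there (median change 4.14), against 65.6% of all shared peaks (median 3.89). The median of the sites was thus near that of the whole list in both BT-474 comparisons and above it on EGF in SKBr3 cells. The 19 sites on EGF in SKBr3 cells came from 7 genes, the most from SPRED2, so they are not independent. In each comparison, including LRSKBr3 below, a site was scored by its strongest peak in each list. The background was scored by single peaks of the first list with a peak in the second. These measures are not alike, and a difference between the group and the background was not tested. On EGF in SKBr3 cells the 5th to 95th percentile range of all shared peaks, -39.8 to 41.9, covered all but DUSP5 site 2 and SPRED2 site 10. On EGF in BT-474 cells that range was -38.3 to 24.2, and DUSP6 site 3 (-63.0) and DUSP4 site 1 (-45.6) lay below it. On HRG the range covered every site in both lines (-44.4 to 51.8 in SKBr3 and -26.0 to 43.2 in BT-474 cells).

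**Figure D4:**
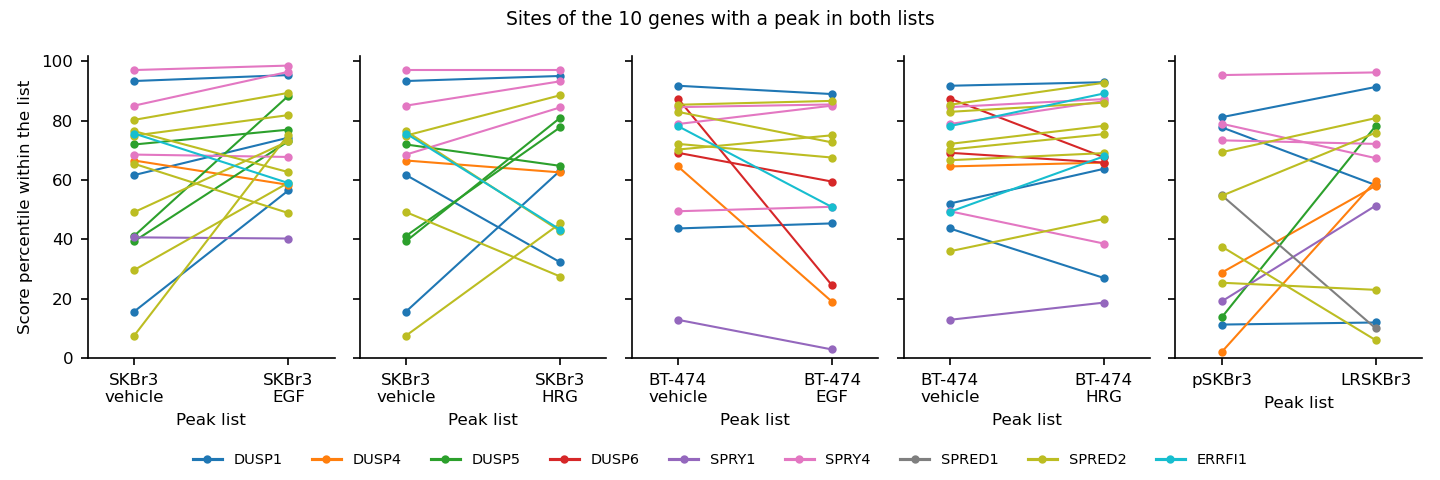
Score percentile of each site called in both lists of a comparison, with the first list on the left and the second on the right of each panel and one line per site, coloured by gene. Steep DUSP5 lines climb in both SKBr3 panels and in the LRSKBr3 panel, and a DUSP6 line drops from 87.5 in both BT-474 panels.

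Lapatinib-resistant cells gained DUSP6 and ERRFI1 and lost 0 of the 10 genes relative to pSKBr3 cells, where 14.8% of all genes were gained and 1.85% lost. The DUSP6 gain was not found at 1e-08, at 1e-10 or with lists of equal size, where ERRFI1 was still gained and SPRED1 was lost. At 1e-10 the gained genes were DUSP4, DUSP5, SPRY1 and ERRFI1. At the level of sites 29 were called in either list. Both lists shared 15, LRSKBr3 cells alone had 14, and pSKBr3 cells alone had 0. With lists of equal size the LRSKBr3-only sites fell to 6. The LRSKBr3 list is the longer, with 39777 peaks against 22539, and 52.1% of its peaks had no pSKBr3 peak while 12.7% of pSKBr3 peaks had no LRSKBr3 peak. Among the 15 shared sites 9 had a higher percentile in LRSKBr3 cells and 6 a lower one, with a median change of 0.911 points. Over all 19679 shared peaks 78.7% were higher, with a median change of 11.8. The larger rises were those of DUSP5 site 1 and DUSP4 site 2, and the larger falls those of SPRED1 site 1 and, from 37.6 to 6.02, SPRED2 site 4. These 4 and DUSP1 site 3, which fell by 19.5, lay outside the 5th to 95th percentile range of all shared peaks (-16.9 to 55.8).

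The 2 vehicle lists differed at 2 of the 10 genes. BT-474 cells had SPRED1, among 12.3% of genes called in BT-474 only, and lacked DUSP5, among 13.4% called in SKBr3 only. The SPRED1 difference was not found at 1e-08, at 1e-10 or with lists of equal size, where DUSP6 was called in BT-474 only and SPRY1, with DUSP5, in SKBr3 only. The other 8 genes were called in both or, for SPRY2, in neither. The BT-474 lists rest on 1 ChIP library each and have wider peaks (median width 2012 bp on vehicle against 1405 bp), so line, number of libraries and peak width cannot be told apart here.

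Of the 190 peaks, 14 (7.37%) held the ERRE word within 100 bp of the centre, against 6.75% of all peaks over the 8 lists and 0.280% to 0.384% of windows of the same length 2 kb away. The core AAGGTCA was found in 40 (21.1% against 23.6%) and the AP-1 word in 15 (7.89% against 7.59%). The peaks of a site share their sequence, so these are fewer independent sequences than peaks. The 10 genes thus held these words about as often as the lists as a whole. In SKBr3 cells the AP-1 word was within 100 bp in 6.56% of all peaks on vehicle, 12.7% on EGF and 9.75% on HRG. Among the peaks of the 10 genes it was found in 4 of 26 on vehicle, 2 of 25 on EGF and 2 of 26 on HRG.

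Other genes of the pathway were counted for comparison, from lists set by symbol, and their counts are to be read against the shares of all genes with a peak. Those were 54.6%, 56.8% and 67.0% on SKBr3 vehicle, EGF and HRG and 53.4%, 42.7% and 55.8% in BT-474 cells. Of 6 other MAP kinase phosphatases, 3 had a peak on SKBr3 vehicle, 5 on EGF and 6 on HRG, and 3, 2 and 3 in BT-474 cells. DUSP2 and DUSP7 were gained on both growth factors in SKBr3 cells, DUSP7 at percentiles of 80.4 on EGF and 75.5 on HRG and DUSP2 at 7.30 and 25.7. DUSP9 was gained on HRG only. DUSP10 was lost on EGF in BT-474 cells. In pSKBr3 cells 4 of the 6 had a peak (background 57.6%) and in LRSKBr3 cells 5 (background 70.6%).

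Of 19 other negative regulators, 7 had a peak on SKBr3 vehicle, 11 on EGF and 14 on HRG, and 10, 10 and 11 in BT-474 cells. SOCS3, SOCS5 and DOK1, adaptors or inhibitors of receptor and cytokine signalling, were gained on both growth factors in SKBr3 cells. Their percentiles were 5.29, 21.0 and 28.0 on EGF and 66.9, 51.0 and 44.5 on HRG. SOCS3 was lost on both in BT-474 cells, where its vehicle peak stood at 2.21. In SKBr3 cells CBLB was gained on EGF only, and CBL, CBLC, PTPN12 and SPRED3 on HRG only. In BT-474 cells PHLDA1 was gained on EGF, and CBL and PTPN12 again on HRG. SPRY3 had no peak in range in any list. The resistant cells had a peak at 16 of the 19 (background 70.6%) and pSKBr3 cells at 9 (background 57.6%), and the LRSKBr3 list is the longer.

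Of 20 genes of the RAS to ERK cascade, 13 had a peak on SKBr3 vehicle, 13 on EGF and 16 on HRG, and 14, 11 and 16 in BT-474 cells. BRAF was gained on both growth factors in SKBr3 cells (10.2 on EGF and 17.1 on HRG). MAPK3, which encodes a form of ERK itself, was lost on EGF in both lines, and NRAS was without a peak in all lists. GRB2 and HRAS were gained on HRG only in SKBr3 cells. In pSKBr3 cells 13 of the 20 had a peak (background 57.6%) and in LRSKBr3 cells 14 (background 70.6%). No difference between these lists of genes was tested.

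For each of the 10 genes the gene of most similar profile was the one with the smallest mean absolute difference of strongest percentile over the 8 lists, with a list without a peak in range entered as 0. They were TUBG2 for DUSP1 (1.32 points), RIDA for DUSP4 (6.44), JAK2 for DUSP5 (4.20), FABP12 for DUSP6 (2.95) and EIF4G1 for SPRY1 (5.13). For the others they were PAEP for SPRY2 (0.889), MTR for SPRY4 (0.769), RSKR for SPRED1 (6.71), CACNB4 for SPRED2 (2.56) and GLYATL1B for ERRFI1 (5.49). For SPRY2 the small difference mostly reflects the 6 lists without a peak. None of the 10 genes was the closest match of another.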

How the data were processed

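ERRα ChIP-seq in 8 conditions was analysed from the peak lists of the authors (19 libraries, 13 ChIP and 6 input). Per the submitters' processing notes, reads were aligned with BWA (0.5.9) and handled with SAMtools (0.1.18), and the authors called peaks with MACS on hg19 at a P value cutoff of 1e-05. In 3 lists 2 comment lines name FindPeaks, although the peak names are those of MACS. The deposited score of each peak, which MACS gives as −10 log10 of P, depends on depth and was ranked within its own list only. The lists hold no tag counts, so depth is unknown.

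Starts were those of all transcripts of protein-coding genes in GENCODE v44 lifted to GRCh37. Words were sought on both strands within 100 bp of peak centres, and windows 2 kb away served as flanks. A gene was called gained when the second list alone had a peak in range, and lost when the first list alone did. GC content is that of the 100 bp to each side of a peak centre.

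The 10 genes and the lists of other pathway genes were chosen with earlier results of these data known. All 10 genes were named. Genes of the other lists were named where they were gained or lost in every growth factor comparison of a line or where 5 or fewer were gained or lost on a growth factor, and 1 gene of most alike profile, not within 1 Mb, was named for each of the 10. Some single genes of the cascade list are not reported here. Alternatives concerned the P threshold, the distance, list size, the definition of starts and peak position, the merging of sites and the word window. Assignment, merging and word search were tested on simulated data. The work used Python 3.11.15, numpy 2.4.6 and matplotlib 3.10.9.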

Additional observations from a re-analysis of the deposited data

Results flagged for a closer look

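SPRED1 and 1 site of SPRY1 were called in opposite directions by the growth factor comparisons of the 2 lines. On EGF, SPRED1 (its site 1, near the start) was absent from SKBr3 vehicle and called at percentile 17.5 after EGF, whereas in BT-474 cells it stood at 20.6 on vehicle and was absent after EGF. On HRG the same site reached 63.0 in SKBr3 cells and was again absent in BT-474 cells. SPRY1 site 2 was absent from SKBr3 vehicle and stood at 65.3 on HRG, and in BT-474 cells it stood at 13.8 on vehicle and was absent on HRG. Each list gives a single value, and these differences between the lines were not tested. The BT-474 values that were lost are all in the lower part of their list, and the SPRED1 loss on EGF was not found at P at most 1e-08.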

How the results depend on the processing

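No paired analysis was possible because the authors pooled the replicate libraries into 1 list per condition, and the results come from no test. For the same reason leaving out a library was not run. Counts below were called moved when they differed by more than 1.5 times.

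The number of genes with a peak moved only in pSKBr3 cells at P at most 1e-10 (4), and, with the limit at 1 kb (chosen after the values were seen), in 7 lists. There it was 5, 5 and 6 on SKBr3 vehicle, EGF and HRG, 4 in each BT-474 list and 5 in LRSKBr3 cells. Smaller falls were not called moved, such as from 9 to 6 on BT-474 HRG and from 7 to 5 on BT-474 EGF at 1e-08. No background share is given at the stricter thresholds, so the margin over the background was not checked there.

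Gains and losses depended more on the settings. EGF in SKBr3 cells gained 1 gene at 1e-08, 0 at 1e-10 and 0 with lists of equal size (the 22539 strongest peaks), and lost 0 under each of these but 2 within 10 kb. The 2 gains on HRG in SKBr3 cells did not move under these settings, and within 10 kb 1 gene was lost. In BT-474 cells the DUSP5 gain on HRG went to 0 at 1e-08, at 1e-10, within 10 kb and with lists of equal size, 1 gene was lost on HRG within 10 kb, and the SPRED1 loss on EGF was replaced by DUSP4 at 1e-08 and 1e-10 and went to 0 with lists of equal size. LRSKBr3 cells gained 4 genes at 1e-10 and 1 with lists of equal size, without DUSP6 in either, and lost 1 at 1e-08, at 1e-10 and with lists of equal size. BT-474 against SKBr3 vehicle lost 2 genes and gained DUSP6 in place of SPRED1 at 1e-08, at 1e-10 and with lists of equal size.

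The number of sites fell to 32 at 1e-10, 33 within 10 kb and 33 with lists of equal size. Sites in a single list numbered 8 at 1e-08, 6 at 1e-10, 10 within 10 kb, 6 with lists of equal size and 26 when peaks were linked by centres within 500 bp. HRG-only sites in SKBr3 cells numbered 5 at 1e-08, 5 at 1e-10, 4 within 10 kb and 5 with lists of equal size. EGF-only sites were 0 at 1e-08 and 4 when linked by centres. Vehicle-only sites were 2 at 1e-08, 0 at 1e-10, 2 with lists of equal size and 8 when linked by centres. Sites of LRSKBr3 cells only went to 6 with lists of equal size. The stricter settings keep fewer peaks by construction.

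Within 250 bp of the centre the ERRE word was in 30 peaks, the core in 69, AP-1 in 37 and TGACGTCA in 2. Over whole peaks these were 40, 107, 65 and 5. The remaining settings moved none of the counts they were applied to.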
